A study of Solanum lycopersicum with 96 samples.

Results

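The regions described here are the stretches of the tomato genome that were listed in seed of control plants of the cultivar Moneyberg and in no seed of elicitor-treated Moneyberg plants. The series applied whole-genome bisulfite sequencing, which tells methylated from unmethylated cytosines, to seed DNA of Solanum lycopersicum, and asked whether elicitors given to the mother plant leave a mark in the methylation of her seed. For Moneyberg there was a control beside plants given BABA (the compound beta-aminobutyric acid) in window 2 (TW2), BABA in window 3 (TW3), Ina in TW2 or MeJA (methyl jasmonate) in TW3. For Bolstar there were BABA TW2, Ina TW2 and a control. Doses were not stated. Each group had 12 libraries in the labels, 2 for each of 6 replicates. A treatment was given to 6 mother plants, and 10 of their seeds were pooled for a DNA extraction. The series text counts 90 libraries where the labels give 96, and it does not name BABA in time window 3 for Moneyberg, a group that rests on the labels and its own list.

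For each group the authors deposited 1 list of regions, so no value below has a replicate error and no test between groups was possible. Region names begin with HYPO, but the lists give neither a methylation level nor a read depth, so "held" and "listed" refer to presence in a list and not to a direction of methylation. The genome was cut at every region end of the 5 Moneyberg lists, and segments of 500 bases or more were kept. Of 54502 such segments, 1331 were held by the control list and by none of the 4 elicitor lists. These control-only segments covered 4.62 Mb and made up 3.07% of the 43403 segments that the control list held. The segments were chosen by the region ends of the 5 Moneyberg lists, so their absence from the elicitor lists is a description and not a finding. The Bolstar lists had no part in the choice.

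In plants, cytosine methylation is dense over transposable elements and in the heterochromatin around centromeres, and sparser along the gene-rich chromosome arms. It can be passed through mitosis and often through seed, which is why it is studied as a carrier of priming, a state in which a plant answers an attack faster after an earlier stimulus. BABA is a non-protein amino acid that primes defence, and methyl jasmonate belongs to the hormone pathway that acts against chewing insects and necrotrophic fungi.

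Nearly all of the control-only sequence was either a complete control region that no elicitor list touched or an overhang of a control region past the ends of the elicitor regions. Whole regions numbered 663, or 49.8% of the segments (95% Wilson interval 47.1% to 52.5%), and held 3.21 Mb of the 4.62 Mb. Edges, which share 1 end with the control region, numbered 577 and held 1.30 Mb. A further 91 segments with 0.111 Mb lay inside a control region, away from both of its ends. The Wilson intervals in this text cover counting error over segments only, not differences between plants.

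The 3 kinds of segment differed in size. Whole regions were 789 to 14707 bases long with a median of 4785, edges 504 to 13161 with a median of 1764, and inside segments 502 to 5767 with a median of 851. A typical edge took up 17.6% of its control region, and a typical inside segment 4.90%. Left edges (274) and right edges (303) were similar in number and in median length, at 1783 and 1751 bases. The 1331 segments lay in 1327 different control regions, and the 4 regions with 2 segments each had an overhang at both ends. The shortest segments kept were 502, 504, 507, 508 and 509 bases long, and the longest left out had 499, 497, 496, 493 and 493 bases. The 1100 control-only segments under 500 bases together held 196349 bases.

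**Figure D1:**
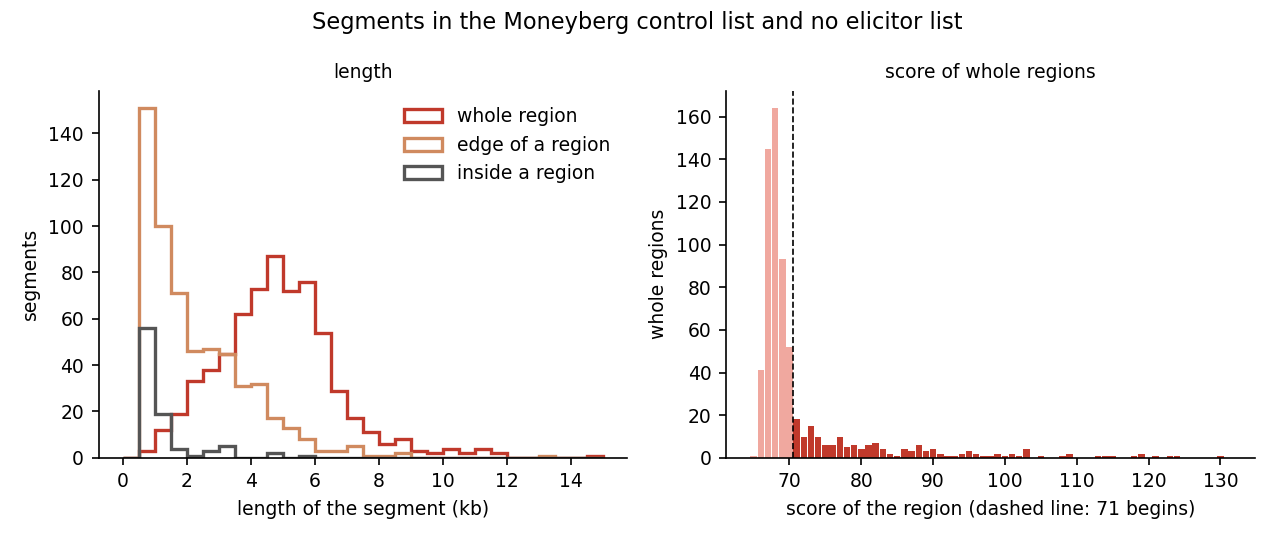
Left, number of control-only segments by length in kb, in steps of 0.5 kb, for whole regions, edges and inside segments. Right, number of whole control-only regions at each score of the control region, with scores below 71 in the paler colour. Whole regions peaked at 4 to 6 kb and edges at the shortest lengths, and most whole regions stood at scores of 66 to 70.

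Most whole regions stood at the low end of the control list's scores. The deposited score, a whole number without a stated definition, had a median of 68 among the 663 whole regions, against 154 over all control regions, and none exceeded 130. Control-only as a whole were 41 of 55 control regions at score 66, 145 of 221 at 67 and 164 of 280 at 68. At higher scores these were 93 of 312 at 69, 52 of 338 at 70 and 18 of 304 at 71. The control list reaches lower scores than any other, with a lowest score of 65, against 69 for BABA TW2, 69 for BABA TW3, 68 for Ina TW2 and 71 for MeJA TW3. It held 1207 regions below 71, against 134, 287, 362 and 0 in those 4 lists.

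The share of control regions that were control-only as a whole fell from the lowest score band upwards. Whether the lowest scores of the elicitor lists have a part in this was not tested. Of the 277 control regions scoring 65 to 67, under every elicitor list's lowest score, 187 were control-only as a whole (67.5%, interval 61.8% to 72.8%). Of the 930 scoring 68 to 70, 309 were (33.2%, 30.3% to 36.3%). In that band 4 of 134 regions were held by BABA TW2 alone (2.99%), 11 of 287 by BABA TW3 alone (3.83%) and 11 of 362 by Ina TW2 alone (3.04%), and MeJA TW3 had no region. From 71 to 77, where all 5 lists have regions, 75 of 2175 control regions were control-only as a whole (3.45%, 2.76% to 4.30%). The corresponding shares of regions held by 1 elicitor list alone in that band were 3.69% for BABA TW2, 3.46% for BABA TW3, 2.72% for Ina TW2 and 2.77% for MeJA TW3. At 78 to 84 the control share was 1.74%, against 2.83%, 2.22%, 2.10% and 3.40% in those lists, and at 85 to 99 it was 1.07%, against 2.03%, 1.38%, 1.62% and 2.00%. None of the 16850 control regions at 150 or more was control-only as a whole, which allows a share of up to 0.0178% when the limit is set at 3 counts of the total.

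**Figure D2:**
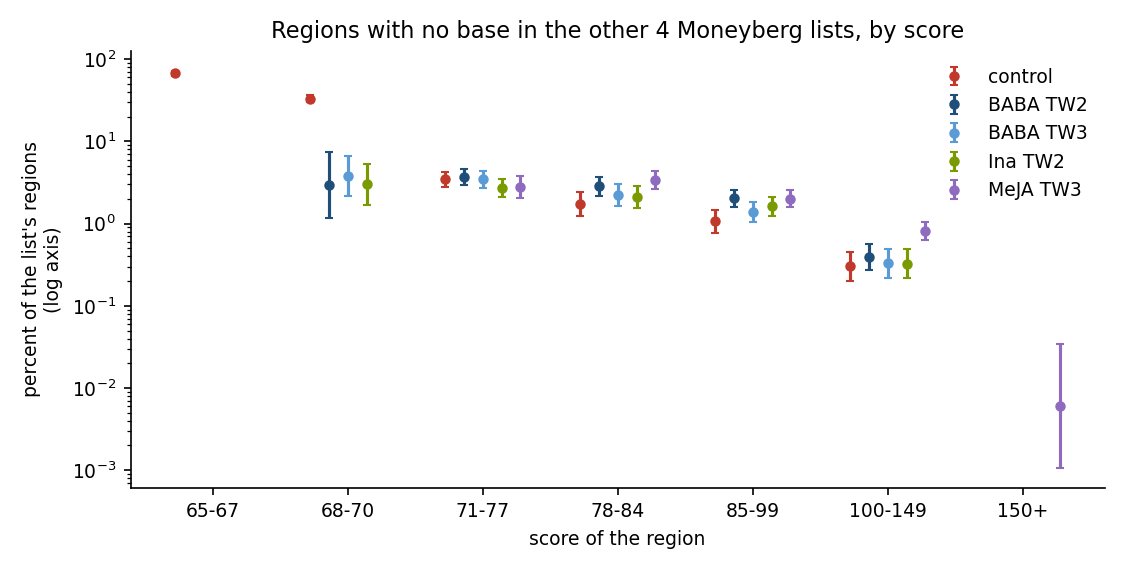
Percent of the regions of each Moneyberg list that had no base in the other 4 Moneyberg lists, by score band, on a log axis; bars are 95% Wilson intervals and bands with a count of 0 or without regions have no point. The control stands at 67.5% and 33.2% in the lowest bands and beside or below the elicitor lists from a score of 71 upwards.

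The same count was made for each elicitor list alone, to see whether the control list stands out. Over all scores, 1331 segments were held by the control alone (3.07% of its segments), against 1222 by BABA TW2 alone (2.76%), 1130 by BABA TW3 alone (2.57%), 1139 by Ina TW2 alone (2.59%) and 1418 by MeJA TW3 alone (3.18%). The control thus came second in number and first in bases, with 4.62 Mb, against 3.69 Mb for BABA TW2, 3.14 Mb for BABA TW3, 3.20 Mb for Ina TW2 and 4.07 Mb for MeJA TW3. With the holding region at a score of 71 or more, the control had the fewest. It then had 821 segments (1.95%) and 2.38 Mb, against 1217 (2.76%) and 3.68 Mb for BABA TW2, 1116 (2.56%) and 3.09 Mb for BABA TW3, 1122 (2.58%) and 3.13 Mb for Ina TW2, and 1418 (3.18%) and 4.07 Mb for MeJA TW3.

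The difference between the 2 counts lay in whole regions. The control had 663 of them over all scores, against 180 to 223 in the elicitor lists, and 167 at 71 or more, against 169 to 223. Of the 510 control-only segments below 71, 496 were whole regions. Edges and inside segments hardly depended on the score limit and were fewest in the control in both sets. Control-only edges numbered 577 over all scores, against 809 to 1050 for 1 elicitor list alone, and 563 at 71 or more, against 806 to 1050. Inside segments numbered 91, against 112 to 145. In the opposite direction, 5402 of the 54502 segments were missing from exactly 1 Moneyberg list over all scores. Of these, 1280 with 3.48 Mb were missing from the control alone, or 2.35% of the 54502. From 1 elicitor list alone, 884 to 1159 segments with 2.49 to 4.04 Mb were missing. These absences were counted over all scores only, so whether the place of the control here depends on the score limit was not tested.

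**Figure D3:**
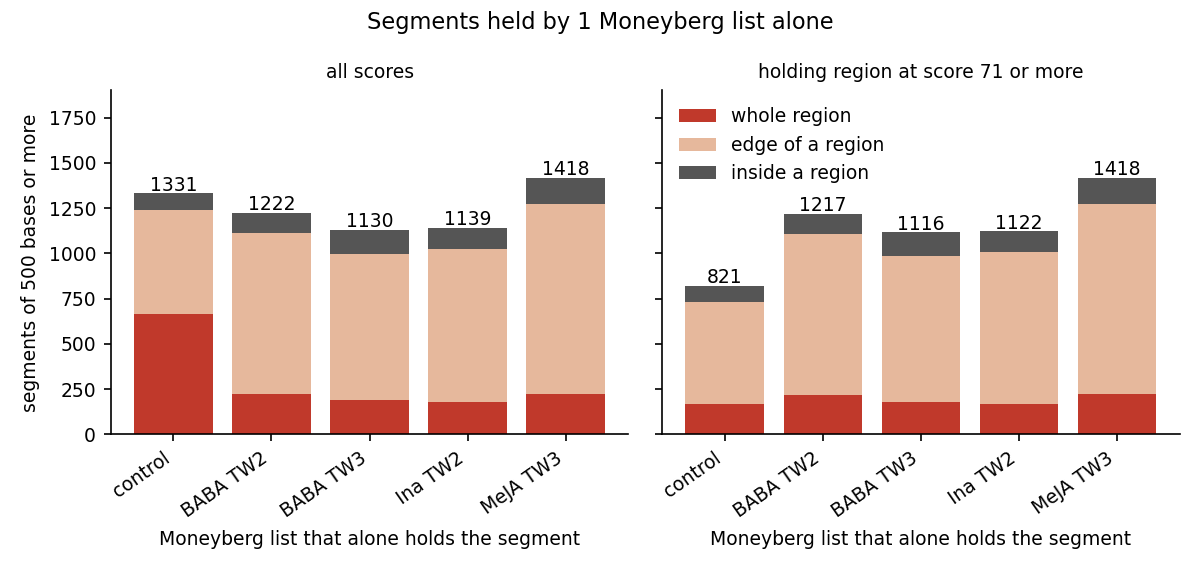
Number of segments of 500 bases or more that 1 Moneyberg list alone held, stacked by whole region, edge and inside segment, over all scores (left) and with the holding region at a score of 71 or more (right). The control bar is second at 1331 on the left, with 663 whole regions, and lowest at 821 on the right.

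At the inner end of a control-only edge, the elicitor lists often began or stopped at 1 common base. In 258 of 577 edges (44.7%) all 4 elicitor lists held the base next to the segment, and in 207 (35.9%) a single list did, so that the other 3 lists ended further in or were absent. For edges of 1 elicitor list alone, all 4 other lists held that base in 44.8% to 50.5%, and a single list did in 31.1% to 37.2%. Of the 91 inside segments, 30 (33.0%) were flanked on both sides by all 4 elicitor lists. For inside segments of 1 elicitor list alone, all 4 other lists did so in 29.5% to 36.6%. Whole control-only regions lay a median of 3308 bases from the nearest elicitor region. In 159 of 663 (24.0%) that distance was 1 kb or less, in 169 (25.5%) it was over 10 kb, and the largest was 141057 bases. Whole regions of 1 elicitor list alone lay a median of 3045.5 to 4411 bases from the nearest region of another Moneyberg list. Of them, 21.2% to 26.1% lay within 1 kb and 23.3% to 31.8% over 10 kb away, with largest distances of 83520 to 108636 bases.

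Control-only segments were found on all 12 chromosomes and were densest on chromosome 9. That chromosome carried 323 segments (24.3%, interval 22.0% to 26.6%) with 1.12 Mb, which was 6.63% of the bases the control list holds there. On the other 11 chromosomes combined the share was 0.806%, and by chromosome it ran from 0.615% on chromosome 7 to 1.08% on chromosome 11. Chromosome 9 had 8.01% of the BABA TW2 bases in segments of that list alone, 6.22% of those of BABA TW3, 6.06% of those of Ina TW2 and 8.21% of those of MeJA TW3. A dense chromosome 9 was thus common to the segments of all 5 lists.

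Off chromosome 9 the place of the control turned with the score limit. Under both limits the shares were taken of all listed bases of a list. Those include regions below 71 in every Moneyberg list but MeJA TW3. Over all scores the control-only share of listed bases was above that of all 4 elicitor lists on 11 of 12 chromosomes, all but chromosome 9. At 71 or more it was below all 4 on 11 of 12, all but chromosome 11, where it was 0.530%, against 0.622% for BABA TW2, 0.501% for BABA TW3, 0.479% for Ina TW2 and 0.793% for MeJA TW3. Of the control-only segments below 71, 38 of 510 (7.45%) lay on chromosome 9, with 0.146 Mb of their 2.24 Mb. Chromosome 9 held 16.9 Mb of the control list, against 433.6 Mb on the other chromosomes combined. Of the 821 at 71 or more, 285 (34.7%) lay on chromosome 9, against 25.9% to 34.0% of the segments of 1 elicitor list alone.

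**Figure D4:**
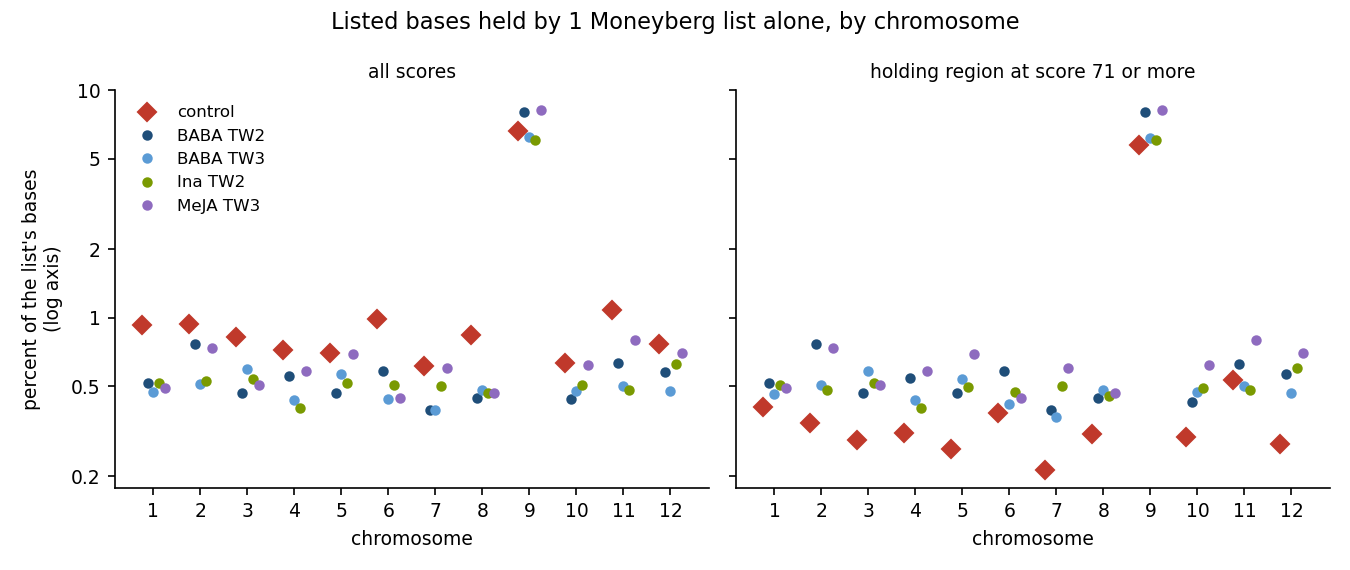
Percent of the listed bases of each Moneyberg list that lay in segments held by that list alone, by chromosome, on a log axis, over all scores (left) and with the holding region at a score of 71 or more (right). Both panels take the share of all listed bases, whatever the score. Chromosome 9 stands at 5.77% to 8.21% in every list, and the control diamonds lie above the other lists on the other chromosomes on the left and mostly below them on the right.

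Along the chromosomes, the ends carried more control-only sequence per listed base than the interiors. The end of a chromosome was set at the last base that any list held there, because the genome build was not given. The first 5 Mb of the chromosomes held 133 segments, the last 5 Mb 101 and the part between 1097. As a share of the listed control bases these were 3.11%, 4.90% and 0.871%. Segments at the ends were mostly whole regions, 102 of 133 in the first 5 Mb and 76 of 101 in the last, against 485 of 1097 between. Single elicitor lists had 1.57% to 2.22% of their listed bases in the first 5 Mb in segments of their own, 2.06% to 2.73% in the last 5 Mb and 0.630% to 0.819% between. At 71 or more the control values were 1.12%, 1.69% and 0.484%, below the elicitor lists' ranges of 1.55% to 2.22%, 2.00% to 2.73% and 0.621% to 0.819%. These shares too were taken of all listed bases, whatever the score. The higher share at the ends than between was present in all 5 lists under both limits.

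In bins of 1 Mb, 591 of 812 bins (72.8%) held at least 1 control-only segment, against 528 to 579 for 1 elicitor list alone. The fullest bin held 12 control-only segments, against 14 to 16 for 1 elicitor list alone. The 8 bins with the most control-only segments were all on chromosome 9. They were picked by the control count, so the elicitor counts beside them do not compare the lists. From 15 to 16 Mb there were 12 control-only segments, against 10 for BABA TW2 alone, 7 for BABA TW3, 6 for Ina TW2 and 5 for MeJA TW3. From 16 to 17 Mb there were also 12, against 7, 12, 6 and 7 in those lists. From 37 to 38 Mb there were 10, against 16, 12, 6 and 16. From 52 to 53 Mb there were 10 with 42.5 kb, against 8, 7, 2 and 8. All 8 bins also held segments of each single elicitor list, at 2 to 16 per list. Bins with 5 or more control-only segments numbered 46, of which 30 were on chromosome 9. For 1 elicitor list alone such bins numbered 38 to 60, with 27 to 45 on chromosome 9.

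The longest control-only segments were mostly complete regions. Of the 10 longest, at 10.5 to 14.7 kb, 9 were whole regions and 3 lay on chromosome 9, which held 24.3% of all control-only segments. The longest was on chromosome 10 at 15708444 to 15723150, with 14707 bases and a score of 108. It lay 82 bases from the nearest elicitor region and was covered entirely by the Bolstar BABA TW2, Bolstar Ina TW2 and Bolstar control lists, so that only the 4 Moneyberg elicitor lists lacked it. The longest edge was on chromosome 9 at 58716101 to 58729261, 13161 bases that made up 85.1% of their control region. Bolstar BABA TW2 and Bolstar control each held 338 bases of it and Bolstar Ina TW2 none. The longest inside segment was on chromosome 2 at 9501399 to 9507165, within a control region of 54.3 kb, flanked on both sides by all 4 elicitor lists and held in full by Bolstar BABA TW2 and Bolstar Ina TW2 and over 98.8% by Bolstar control.

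Other long regions differed among the Bolstar lists. The region on chromosome 6 at 36087937 to 36099175, with a score of 115, was covered in full by Bolstar Ina TW2 and Bolstar control and not touched by Bolstar BABA TW2. On chromosome 2, the region at 7617064 to 7628090 was covered in full by Bolstar BABA TW2 and not touched by Bolstar Ina TW2 or Bolstar control. On chromosome 1, the region at 92841292 to 92852498 lay 23615 bases from the nearest elicitor region, and each of the 3 Bolstar lists held 5022 bases of it. The region on chromosome 1 at 74195306 to 74206807 scored only 68 over 11.5 kb and was held by no other list of the 8. On chromosome 8, 16681829 to 16692923 was touched by Bolstar Ina TW2 alone, over 67.9% of its length.

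The 10 whole regions with the highest scores ran from 113 to 130, and 4 of them were also among the 10 longest. The top score belonged to chromosome 9 at 21114009 to 21124052, 49701 bases from the nearest elicitor region and held over 60.5% by Bolstar control and by neither Bolstar treatment. Next came chromosome 9 at 53674050 to 53679289 with a score of 124, held over 100% by Bolstar BABA TW2, 96.5% by Bolstar Ina TW2 and 82.4% by Bolstar control. The region on chromosome 9 at 53446624 to 53456988, with a score of 121, was in no other list of the 8. On chromosome 7, 1819714 to 1827051 lay 30914 bases from the nearest elicitor region, near the chromosome start, and was touched by Bolstar Ina TW2 alone. Of these 10 regions 9 were touched by a Bolstar list, and 2 by all 3. Among all 167 whole control-only regions at 71 or more these were 98 (58.7%) and 28 (16.8%).

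For single elicitor lists, the longest segments were of the same order. The longest whole region was 13.6 kb for BABA TW2 alone, 14.6 kb for BABA TW3 alone, 12.2 kb for Ina TW2 alone and 14.6 kb for MeJA TW3 alone, all on chromosome 9. The longest control-only region was 14.7 kb and on chromosome 10. The longest inside segments were 10.3 kb for BABA TW2 alone, 8.91 kb for BABA TW3 alone, 9.82 kb for Ina TW2 alone and 5.58 kb for MeJA TW3 alone, against 5.77 kb for the control.

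The Bolstar lists gave a view of the control-only segments that was independent of their choice. Of the 1331 segments, 538 (40.4%, interval 37.8% to 43.1%) had a base in Bolstar BABA TW2, 566 (42.5%, 39.9% to 45.2%) in Bolstar Ina TW2 and 536 (40.3%, 37.7% to 42.9%) in Bolstar control. The treated lists and the control list of Bolstar thus held nearly equal shares over all kinds of segment together, but not by kind. Whole regions were touched in 21.4% by Bolstar BABA TW2, 28.5% by Bolstar Ina TW2 and 24.0% by Bolstar control. For inside segments these shares were 75.8%, 63.7% and 61.5%. At least 1 Bolstar list held a base of 776 of the 1331 segments (58.3%, 55.6% to 60.9%), 354 were touched by all 3 lists and 555 by none. For comparison, 95.1% of all segments of the Moneyberg control list had a base in a Bolstar list.

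These shares differed by score and by kind of segment. Of the 510 segments below 71, 353 (69.2%) had no base in any Bolstar list, whose lowest scores were 85 for BABA TW2, 71 for Ina TW2 and 78 for the control. Of the 821 at 71 or more, 202 (24.6%) had none. At 71 or more, 98 of 167 whole regions (58.7%) were touched by a Bolstar list, as were 444 of 563 edges (78.9%) and 77 of 91 inside segments (84.6%). Of the 663 whole regions, 16 stood in a Bolstar list with the same start and end, all of them at 71 or more. That was 9.58% of the 167 whole regions at 71 or more, against 5.33% to 13.5% for 1 elicitor list alone. Of the 577 edges, 172 (29.8%) had their outer end at exactly the same base as a Bolstar region. The inner end did so in 144 (24.96%). Over all scores, edges of 1 elicitor list alone had shares of 29.5% to 36.7% for outer and 26.3% to 28.7% for inner ends. The control share was thus inside that range for outer ends and below it for inner ends.

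Against single elicitor lists, the control-only segments at 71 or more had a share in Bolstar within the range of the other lists. A Bolstar list touched 75.4% of them (72.3% to 78.2%), against 74.4% for BABA TW2 alone, 74.0% for BABA TW3 alone, 75.4% for Ina TW2 alone and 71.9% for MeJA TW3 alone. Over all scores the control value was 58.3%, below the 71.9% to 74.5% of the elicitor lists. All 3 Bolstar lists touched 33.7% of the control-only segments at 71 or more, against 35.7% to 41.7% for the others, and exactly 1 touched 25.5%, against 18.9% to 21.8%. Whether these shares differ beyond the spread between plants could not be tested.

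**Figure D5:**
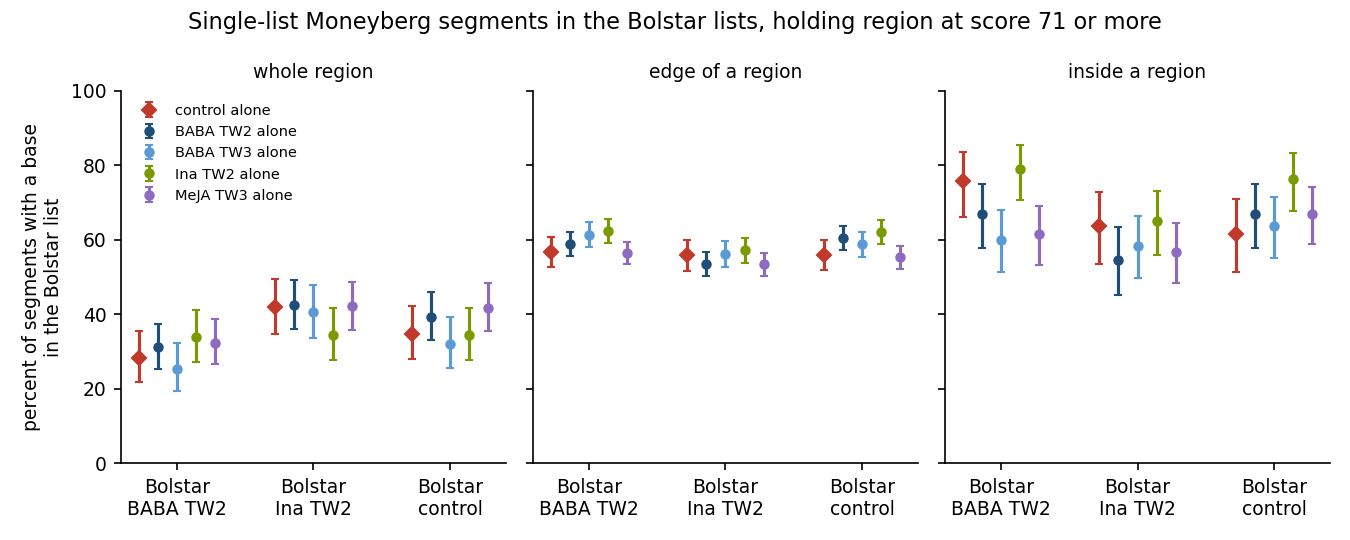
Percent of single-list Moneyberg segments with a base in each Bolstar list, for whole regions, edges and inside segments with the holding region at a score of 71 or more; bars are 95% Wilson intervals. The control diamonds lie within the range of the elicitor lists except for inside segments in Bolstar control, at 61.5% against 63.6% to 76.3%, with whole regions at 28.1% to 41.9%, edges at 55.8% to 56.7% and inside segments at 61.5% to 75.8%.

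Some segments were listed in both control groups and in no elicitor group of either cultivar. Bolstar control alone touched 74 of the 1331 control-only segments (5.56%), 26 of them whole regions and 30 on chromosome 9, with 190.8 kb in both control lists. At 71 or more there were 61 (7.43%). Segments of 1 elicitor list alone were touched by Bolstar control alone in 6.28% to 8.27% of cases over all scores and in 6.28% to 8.30% at 71 or more, so the control-only share was below that range over all scores and inside it at 71 or more. The opposite pattern, both Bolstar treatments and not Bolstar control, was found in 48 control-only segments (3.61%), against 3.68% to 4.51% for the elicitor lists. With scores of 71 or more it was found in 42 (5.12%), above the 3.70% to 4.57% of the elicitor lists.

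Of the 663 whole regions, 417 (62.9%) with 1897 kb had no base in any of the other 7 lists. For whole regions of 1 elicitor list alone these were 90 of 223 for BABA TW2, 85 of 189 for BABA TW3, 90 of 180 for Ina TW2 and 91 of 223 for MeJA TW3. With scores of 71 or more they were 69 of 167 for the control (41.3%, 388.0 kb), inside the 39.7% to 47.9% of the elicitor lists. By chromosome, the share of control-only segments with a base in a Bolstar list ran from 43.3% on chromosome 6 to 68.4% on chromosome 9. With scores of 71 or more it ran from 61.8% on chromosome 6 to 88.0% on chromosome 12. Chromosome 9, at 70.9%, was then below the 77.8% of the other chromosomes combined. For each elicitor list alone chromosome 9 was lower too, at 69.1% to 71.5%, against 73.0% to 77.6%. Over all scores the share of control-only segments with a base in a Bolstar list was 43.6% in the first 5 Mb, 34.7% in the last 5 Mb and 62.3% between. At 71 or more these were 60.8%, 47.7% and 78.1%, against 51.6% to 62.9%, 39.5% to 57.4% and 75.3% to 79.2% for 1 elicitor list alone.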

How the data were processed

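The authors deposited 1 region list per group, with 6 columns and no header, and its score, a whole number per region that neither labels nor files define, was used to describe and filter regions. The 12 libraries of each group were thus represented by 1 list. The submitters' processing notes list Trim Galore, with no version. The aligner, caller, genome build and thresholds were not given in the sources used here, and read depth is unknown. The gene table at hand is of assembly SLM_r2.1. The last listed base lay over 1 Mb past its last gene on 3 of 12 chromosomes and over 1 Mb short of it on 8, so no gene was assigned and no sequence was printed.

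Lists were tied to groups by the description label. Segments, kinds and overlaps (1 base or more) were computed with Python 3.11.15, numpy 2.4.6 and pandas 2.3.3, and tested on simulated lists. Coordinates count from 1. Wilson intervals came from scipy 1.17.1. Named are the 10 longest segments, the 10 whole regions with the highest score, the longest of each kind, the 5 lengths on each side of 500 and the fullest 1 Mb bins. The members, lists and settings were chosen with earlier results of these data known.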

Additional observations from a re-analysis of the deposited data

How the results depend on the processing

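The limits of these results are the single pooled list per group, the undefined score and the unknown depth. No paired analysis was possible because the lists carry no replicates. The number of control-only segments was 1331, with 4.62 Mb. It stayed within 1.5 times of these values under other lengths, joining of regions 500 bases or less apart, leaving out chromosome 9 or leaving out 1 elicitor list. Counted from 200 bases the control had rank 3 of the 5 lists, and from 1000 or 2000 bases or without chromosome 9 it had rank 1. The MeJA TW3 list was the only one above the control in the main count. Without that list the control had rank 1 of 4, with 1715 segments against 1704 for BABA TW2. A score minimum moved number and bases, to 821 and 2.38 Mb with the holding region at 71 or more, to 832 and 2.47 Mb with all Moneyberg lists first reduced to 71 or more, and to 747 and 2.49 Mb at 85 or more, and the control was then last of 5.

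Whole regions made up 49.8%. Their share was 38.6% from 200 bases, 58.9% from 1000 and 70.2% from 2000, 42.4% with regions joined, 55.2% without chromosome 9, 45.6% without the BABA TW3 list and 44.4% without the MeJA TW3 list. With the score minimums in the order above it was 20.3%, 21.5% and 17.8%. Chromosome 9 held 24.3% of the segments. This was 21.8% from 200 bases, 21.9% from 2000, 26.9% without the BABA TW2 list, and 34.7%, 34.4% and 31.3% with the score minimums. A Bolstar list touched 58.3%. This was 61.5% from 200 bases, 52.5% from 2000, 55.1% without chromosome 9, and 75.4%, 75.1% and 81.5% with the score minimums. Leaving out an elicitor list gave 63.8% (BABA TW2), 63.6% (BABA TW3), 61.5% (Ina TW2) and 65.01% (MeJA TW3). It was 54.8% when at least 50% of the segment had to be covered and 52.7% with the Bolstar lists at 85 or more. The cause of these shifts was not tested.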
